A study of Homo sapiens with 7 samples.

Results

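CXCL8, which encodes interleukin-8, was examined here together with the 5 other neutrophil-attracting CXC chemokines CXCL1, CXCL2, CXCL3, CXCL5 and CXCL6 and with their receptors CXCR1 and CXCR2. These 8 genes, 6 ligands and 2 receptors, were chosen by name and each had 1 probe on the array, among 18417 genes with a named probe. The cells were SUM159, a mesenchymal line of triple-negative breast cancer kept in 2D culture, and their RNA was profiled on 7 Human Gene 1.0 ST arrays. Every culture carried a lentiviral hairpin switched on by doxycycline and was given doxycycline for 15 days according to the labels, the controls included. The hairpin was SHP2 sh1 on 2 arrays and SHP2 sh2 on 3 arrays, both directed against SHP2, the phosphatase encoded by PTPN11, and a control hairpin on 2 arrays (Ctrl shRNA). The series' own text calls these hairpins SHP2 miR1, SHP2 miR2 and CTRL miR. The comparison asks whether RNA of the chemokine genes changed when SHP2 was depleted in these cells. Values are log2 expression after robust multi-array averaging (RMA), in which a step of 1 is a doubling of signal. A level on this scale depends on the probes of the gene, so levels were compared between arrays and not between genes.

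Chemokines of this family are small secreted proteins that carry a glutamate-leucine-arginine motif in front of their CXC cysteines. They draw neutrophils out of blood through CXCR2, and CXCL8 and CXCL6 also act through CXCR1. Epithelial and tumour cells make them when interleukin-1, TNF or growth factors activate NF-kB and AP-1 at their promoters, and AU-rich elements in their mRNAs keep them short-lived. SHP2 passes signals from growth factor receptors to the RAS-ERK cascade.

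PTPN11, the targeted gene, was 7.90 and 6.93 under SHP2 sh1, and 7.96, 7.20 and 7.89 under SHP2 sh2, against 9.53 and 9.18 under Ctrl shRNA. All 5 SHP2 arrays lay below both controls. In each SHP2 group replicate 2 stood apart from the other arrays. Replicate 2 was also the array with the lowest PTPN11 of each SHP2 group. Leaving it out thus also leaves out the lowest PTPN11 values. Over all probes, SHP2 sh1 replicate 2 had correlations of 0.930 to 0.965 with the 5 arrays other than this pair, and SHP2 sh2 replicate 2 had 0.886 to 0.936, whereas those 5 correlated at 0.981 to 0.992 among themselves. The correlation between these 2 arrays, each of another hairpin, was 0.972, above that of either with any of the other 5. Fold changes averaged over both hairpins are given also without the pair where that moved them by more than 1.5 times. It is not stated whether replicate arrays were separate cultures, so p-values reflect only the scatter of these arrays, possibly technical. Having 2 or 3 arrays in each group limits the precision. Of 6 mesenchymal markers, VIM was at 11.62 to 12.18 over the 7 arrays and FN1 at 12.15 to 12.87, whereas CDH2 was at 6.77 to 9.28 and ZEB1 at 7.01 to 8.61. Of 8 luminal markers, KRT8 was at 9.73 to 11.25 and KRT18 at 8.65 to 9.87, and the other 6 at 2.89 to 8.29. The 12 measured markers of blood cells spanned 3.90 (PTPRC) to 9.86 (S100A8). As no detection call was given, these ranges do not say which markers were expressed.

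The 6 ligand genes lie in 1 cluster on chromosome 4, in the order CXCL8, CXCL6, CXCL1, CXCL5, CXCL3 and CXCL2, with the platelet chemokine genes PF4V1, PF4 and PPBP among them. CXCR2 and CXCR1 are neighbours on chromosome 2. The stretches around the NF-kB match in the 6 ligand promoters are shown because NF-kB is the factor these genes are best known to share. They come from RefSeq (GRCh38.p14) and run 5′ to 3′ on the strand of the gene. Capitals mark the match to GGAANTTCC, the NF-kB motif. In CXCL8 they also mark, from the left, an ETS match and an AP-1 match before it and a TATA box after it.
CXCL8, chr4:73740418-73740552, plus strand: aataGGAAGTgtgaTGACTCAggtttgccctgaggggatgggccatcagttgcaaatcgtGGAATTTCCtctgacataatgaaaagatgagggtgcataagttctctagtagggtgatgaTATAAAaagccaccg
CXCL1, chr4:73869255-73869389, plus strand: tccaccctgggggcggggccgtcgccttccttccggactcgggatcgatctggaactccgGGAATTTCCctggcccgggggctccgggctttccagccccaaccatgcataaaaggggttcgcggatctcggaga
CXCL2, chr4:74099198-74099332, minus strand: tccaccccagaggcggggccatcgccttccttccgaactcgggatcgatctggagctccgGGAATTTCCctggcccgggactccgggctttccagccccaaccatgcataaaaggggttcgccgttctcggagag
CXCL3, chr4:74038693-74038827, minus strand: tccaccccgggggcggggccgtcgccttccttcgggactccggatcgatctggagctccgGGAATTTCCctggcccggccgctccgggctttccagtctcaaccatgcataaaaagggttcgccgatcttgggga
CXCL5, chr4:73998693-73998827, minus strand: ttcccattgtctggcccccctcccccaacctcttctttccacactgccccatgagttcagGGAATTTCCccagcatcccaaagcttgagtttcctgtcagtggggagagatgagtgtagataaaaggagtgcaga
CXCL6, chr4:73836529-73836663, plus strand: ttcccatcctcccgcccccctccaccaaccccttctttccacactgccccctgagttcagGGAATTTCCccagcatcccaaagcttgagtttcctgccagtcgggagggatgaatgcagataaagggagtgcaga

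Over the 300 bases from 250 before to 50 after the gene start, searched on both strands, GGAANTTCC was found once in each of the 6 ligand promoters. It was found in neither receptor promoter and in 339 of 35116 promoters (0.965%). The match began 91 bases before the start in CXCL8, 90 in CXCL5, 89 in CXCL6, 78 in CXCL1 and CXCL3, and 77 in CXCL2. TGANTCA was present in CXCL8 only among the 6 ligands, from 137 to 131 bases before the start, and in 7.71% of all promoters. GGAAGT was present in CXCL8, from 147 to 142 bases before the start, in the receptor CXCR2 and in 22.8% of all promoters. TATAAA was matched in CXCL8, from 31 to 26 bases before the start, and in 11.5% of all promoters. TTGCNNAA (C/EBP) was matched in CXCL2, beginning 188 bases before the start, and in 10.5% of all promoters. No 2 of these matches overlapped in the ligand promoters. Aligned without gaps at the NF-kB match, 100 bases were 92% identical between CXCL1 and CXCL3, 82% between CXCL1 and CXCL2, 79% between CXCL2 and CXCL3 and 92% between CXCL5 and CXCL6. CXCL8 shared 24 to 34% with the other 5. A match describes letters in this window and is not a measured binding site. Only exact letters were counted, so lack of a match does not show lack of a site. Stretches that differ by 1 letter occur in the printed sequences, for the C/EBP motif in CXCL8 and for the TATA box in the other 5 ligands.

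**Figure D1:**
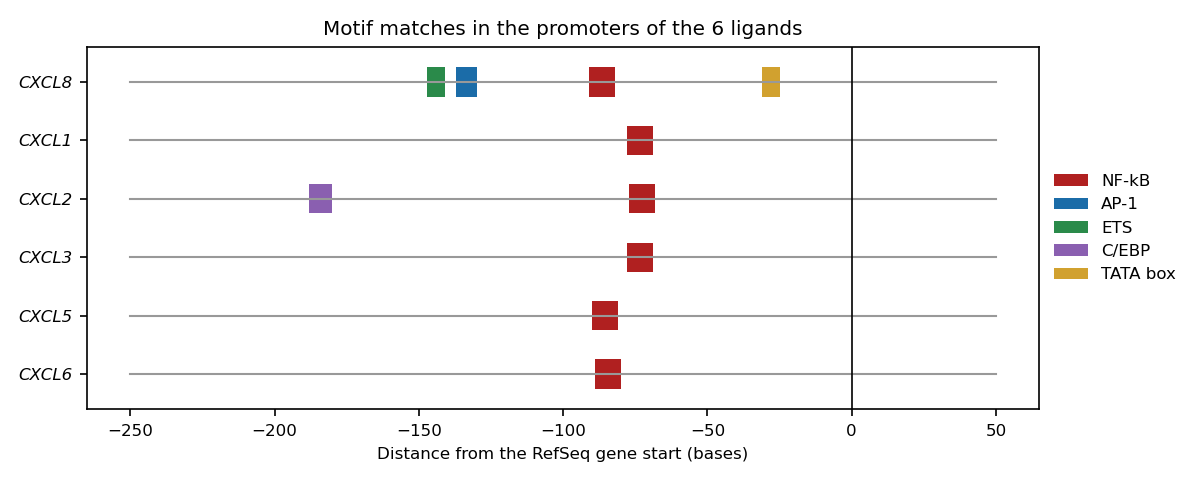
Positions of the motif matches (coloured boxes) in the promoters of the 6 ligands, in bases from the RefSeq gene start. All 6 hold 1 NF-kB match between 91 and 69 bases before the start, and CXCL8 also holds the ETS, AP-1 and TATA box matches.

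CXCL8 was 12.44 and 10.18 under SHP2 sh1, and 11.12, 9.44 and 11.25 under SHP2 sh2, against 11.27 and 11.38 under Ctrl shRNA. The SHP2 sh1 arrays lay on either side of the controls, and all 3 SHP2 sh2 arrays lay below both, the nearest by a margin smaller than the gap between the controls. CXCL8 averaged 11.31 ± 1.60 under SHP2 sh1 (SD, n = 2) and 10.60 ± 1.01 under SHP2 sh2 (SD, n = 3), against 11.32 ± 0.07 under Ctrl shRNA (SD, n = 2). CXCL8 was the member with the second widest range, 3.00 over the 7 arrays, and both of its extremes were SHP2 arrays. In a bulk culture, fewer cells making CXCL8 and less of its RNA in each cell cannot be told apart. The log2 fold change was -0.01 with SHP2 sh1 (95% interval -2.06 to 2.03) and -0.72 with SHP2 sh2 (-2.58 to 1.14). For the mean of both hairpins it was -0.37 (standard error 0.72, interval -2.09 to 1.35, adjusted p = 0.804 from limma). The interval thus holds a large fall as well as a rise of more than a doubling.

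CXCL1, CXCL2 and CXCL3 are the GRO chemokines, close copies of one another that act through CXCR2. CXCL1 was 10.82 and 8.83 under SHP2 sh1, and 10.14, 8.54 and 9.98 under SHP2 sh2, against 9.76 and 10.02 under Ctrl shRNA. CXCL2 was 9.85 and 6.46 under SHP2 sh1, and 8.27, 6.51 and 8.67 under SHP2 sh2, against 8.49 and 8.56 under Ctrl shRNA. CXCL3 was 8.42 and 7.44 under SHP2 sh1, and 7.59, 7.53 and 8.12 under SHP2 sh2, against 7.43 and 7.84 under Ctrl shRNA. For all 3 genes each hairpin's arrays overlapped the controls, and SHP2 sh1 replicate 1 was the highest of the 7 arrays. CXCL1 and CXCL2 were lowest on the arrays that stood apart, whereas CXCL3 on those arrays was within 0.20 of the control mean. CXCL2 had the widest range of the 8 genes, 3.39, all of it between the 2 SHP2 sh1 arrays. The log2 fold changes for the mean of both hairpins were -0.21 (interval -1.73 to 1.32), -0.54 (-2.84 to 1.75) and 0.20 (-0.58 to 0.98), with adjusted p of 0.868, 0.790 and 0.777 from limma. Whether probes of these near-identical transcripts take up RNA of their copies was not tested.

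CXCL5 and CXCL6 form the other close pair, of which CXCL5 acts through CXCR2 and CXCL6 through both receptors. CXCL5 was 6.42 and 7.14 under SHP2 sh1, and 6.76, 7.43 and 6.68 under SHP2 sh2, against 6.55 and 6.35 under Ctrl shRNA. CXCL6 was 4.90 and 4.96 under SHP2 sh1, and 4.96, 5.34 and 5.00 under SHP2 sh2, against 4.96 and 4.77 under Ctrl shRNA. In both genes the 3 SHP2 sh2 arrays lay above both controls and the SHP2 sh1 arrays overlapped them, although for CXCL6 the lowest SHP2 sh2 value and the highest control value were equal to 2 decimals. Unlike CXCL8, CXCL5 was highest on the arrays that stood apart. Its log2 fold change was 0.34 with SHP2 sh1 and 0.51 with SHP2 sh2, and 0.42 for the mean of both hairpins (interval -0.30 to 1.14, adjusted p = 0.758 from limma). That of CXCL6 was 0.06 and 0.23, and 0.15 for the mean (interval -0.30 to 0.59, adjusted p = 0.758 from limma).

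CXCR1 and CXCR2, the receptors, are best known on neutrophils. CXCR1 was 4.57 and 4.91 under SHP2 sh1, and 4.83, 5.43 and 4.92 under SHP2 sh2, against 4.60 and 4.83 under Ctrl shRNA. CXCR2 was 4.36 and 4.77 under SHP2 sh1, and 4.36, 4.42 and 4.36 under SHP2 sh2, against 4.13 and 4.26 under Ctrl shRNA. CXCR2 was the only member whose 5 SHP2 arrays all lay above both controls. CXCL6, CXCR1 and CXCR2 reached a log2 value of 6 on 0 of 7 arrays, whereas the other 5 members did so on all 7. The deposited values carry no detection call, so a level this low was not separated from background. CXCR2 had the same value on 3 arrays, and CXCL6 and CXCR1 each did on 2 arrays. Values shared by 2 or more arrays occurred in 32.7% of the 33297 probes. The log2 fold changes for the mean of both hairpins were 0.18 for CXCR1 (interval -0.37 to 0.74) and 0.28 for CXCR2 (interval -0.16 to 0.72), both with an adjusted p of 0.758 from limma.

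**Figure D2:**
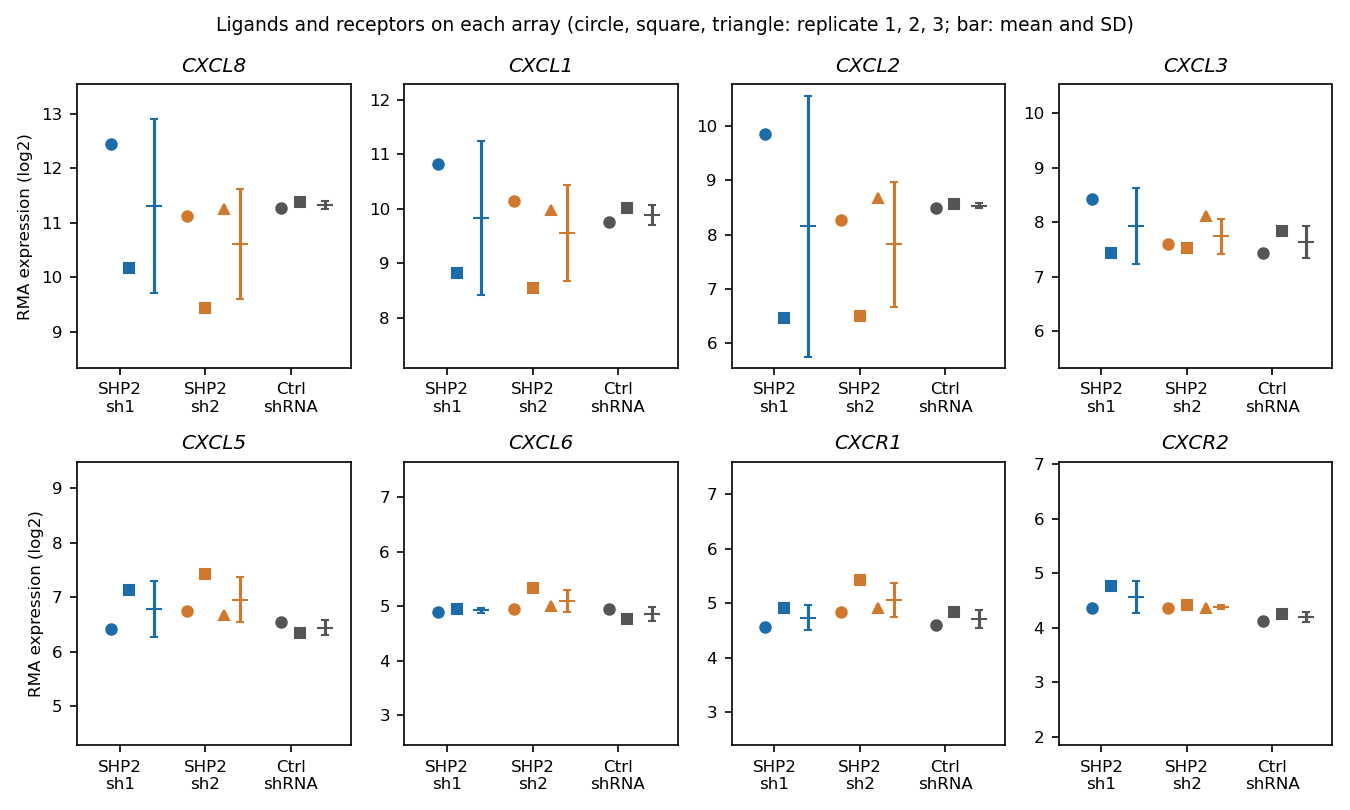
RMA expression (log2) of the 8 genes on each array, with SHP2 sh1 and SHP2 sh2 left of Ctrl shRNA, symbols for the replicates and bars for the mean and SD of a group; all panels have the same height in log2 units. CXCL8, CXCL1 and CXCL2 spread widely within each SHP2 hairpin while their controls lie close together, and CXCL6, CXCR1 and CXCR2 stay below 6 on every array.

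limma called 0 of the 8 genes at an adjusted p under 0.05, whether each hairpin or the mean of both was compared with Ctrl shRNA or SHP2 sh2 with SHP2 sh1. It called 0% of all 18417 genes in each of these 4 comparisons, so PTPN11, the targeted gene, was not called either. At an unadjusted p under 0.05 there were again 0 members, and 201, 432, 358 and 116 genes over the array. A p above the threshold does not show that these levels were equal. Counted by arrays that do not overlap, 1 member, CXCR2, lay above Ctrl shRNA with SHP2 sh1 and 0 below, where 12.8% of all genes lay above and 12.3% below. With SHP2 sh2, 3 members (CXCL5, CXCL6 and CXCR2) lay above and 1 (CXCL8) below, where 24.2% of all genes lay above and 16.1% below. Over the arrays of both hairpins 1 member lay above and 0 below, where 8.13% of genes lay above and 7.17% below. Between the hairpins, 0 members had SHP2 sh2 arrays all above or all below those of SHP2 sh1, where 2.21% of genes lay above and 3.08% below. With 8 genes, counts of 0 to 3 lie close to these shares of all genes, and nothing about the members is read from them.

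Averaged over both hairpins, 3 of the 6 ligands were lower than in Ctrl shRNA and 3 higher. Their median log2 fold change was -0.03, beside 0.08 over all genes, of which 42.0% were below 0. With SHP2 sh1 the split was again 3 and 3, with a median of 0.02 (0.04 over all genes), and with SHP2 sh2 3 and 3, with a median of -0.12 (0.09 over all genes). CXCL8, CXCL1 and CXCL2 were the 3 below 0 each time, and CXCL3, CXCL5 and CXCL6 the 3 above. The difference of SHP2 sh2 minus SHP2 sh1 was -0.71 for CXCL8 (interval -2.57 to 1.16), and over the 8 genes it ran from there to 0.32 for CXCR1, with an adjusted p of 1.00 from limma for every member.

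Leaving out both arrays that stood apart turned the sign of CXCL8, CXCL1 and CXCL2. For the mean of both hairpins their log2 fold changes were then 0.49, 0.55 and 0.63, and CXCL3 was at 0.50. These values carry SHP2 sh1 replicate 1, by then the lone array of its hairpin, on which CXCL8, CXCL1, CXCL2 and CXCL3 were 1.12, 0.93, 1.32 and 0.79 above the control mean. With SHP2 sh2, which keeps 2 arrays, the 4 values were -0.14, 0.16, -0.06 and 0.22. CXCL5, CXCL6, CXCR1 and CXCR2 were at 0.12, 0.07, 0.01 and 0.17 for the mean without the arrays that stood apart, against 0.42, 0.15, 0.18 and 0.28 with them. None of these was called by limma. All 6 ligands were then above 0 for the mean, with a median of 0.50, beside 0.0018 over all genes, of which 49.3% were below 0.

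**Figure D3:**
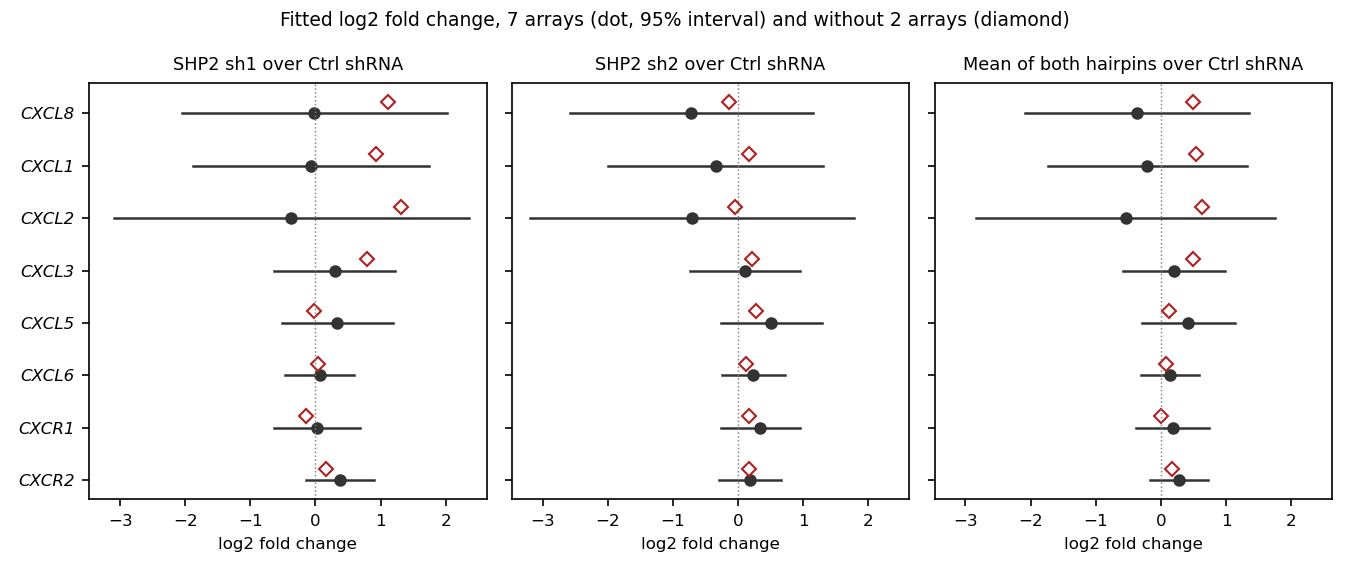
Fitted log2 fold change of the 8 genes over Ctrl shRNA with 95% interval from limma over 7 arrays (dots and lines), and without SHP2 sh1 replicate 2 and SHP2 sh2 replicate 2 (open diamonds, drawn with no interval). Every interval holds 0, and the diamonds of CXCL8, CXCL1 and CXCL2 lie at 0.49, 0.55 and 0.63 for the mean of both hairpins, right of their dots.

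Bright genes as a whole were shifted on the arrays that stood apart, so each member was set beside the genes whose control mean was within 0.5 of its own. On SHP2 sh2 replicate 2, CXCL8 differed from the control mean by -1.88, where the 198 genes of like level had a median of -1.16 and 9.60% of them lay lower still. On SHP2 sh1 replicate 2 it differed by -1.15, where the median of those genes was -0.71. Both values lay within the middle 90% of the genes of like level. On SHP2 sh2 replicates 1 and 3, CXCL8 differed from the control mean by -0.20 and -0.08, where the medians were -0.17 and -0.01. On SHP2 sh1 replicate 1 it was 1.12 above, and 99.5% of the genes of like level lay lower.

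The same array held the GRO chemokines high. CXCL2 lay above 99.5% of 2930 genes of like level on SHP2 sh1 replicate 1, CXCL1 above 97.9% of 1057 and CXCL3 above 97.8% of 3853. CXCL1 also passed the middle 90% of its genes of like level on SHP2 sh2 replicate 1, at 0.24 above the control mean, and CXCL3 on SHP2 sh2 replicate 3, at 0.48. CXCL2 was also the ligand farthest below the controls on the arrays that stood apart, at -2.07 on SHP2 sh1 replicate 2 and -2.02 on SHP2 sh2 replicate 2, where 2.39% and 7.88% of the genes of like level lay lower. CXCL1 on those arrays was at -1.07 and -1.35, close to the medians of -0.79 and -1.26. CXCL5, CXCL6, CXCR1 and CXCR2 stayed within the middle 90% of their genes of like level on every array. Dim genes were higher on the arrays that stood apart, with medians of 0.28 and 0.58 among the genes of like level to CXCL6, and CXCL6 itself was at 0.09 and 0.47. The part of these array-wide shifts in the members' fold changes was not tested.

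**Figure D4:**
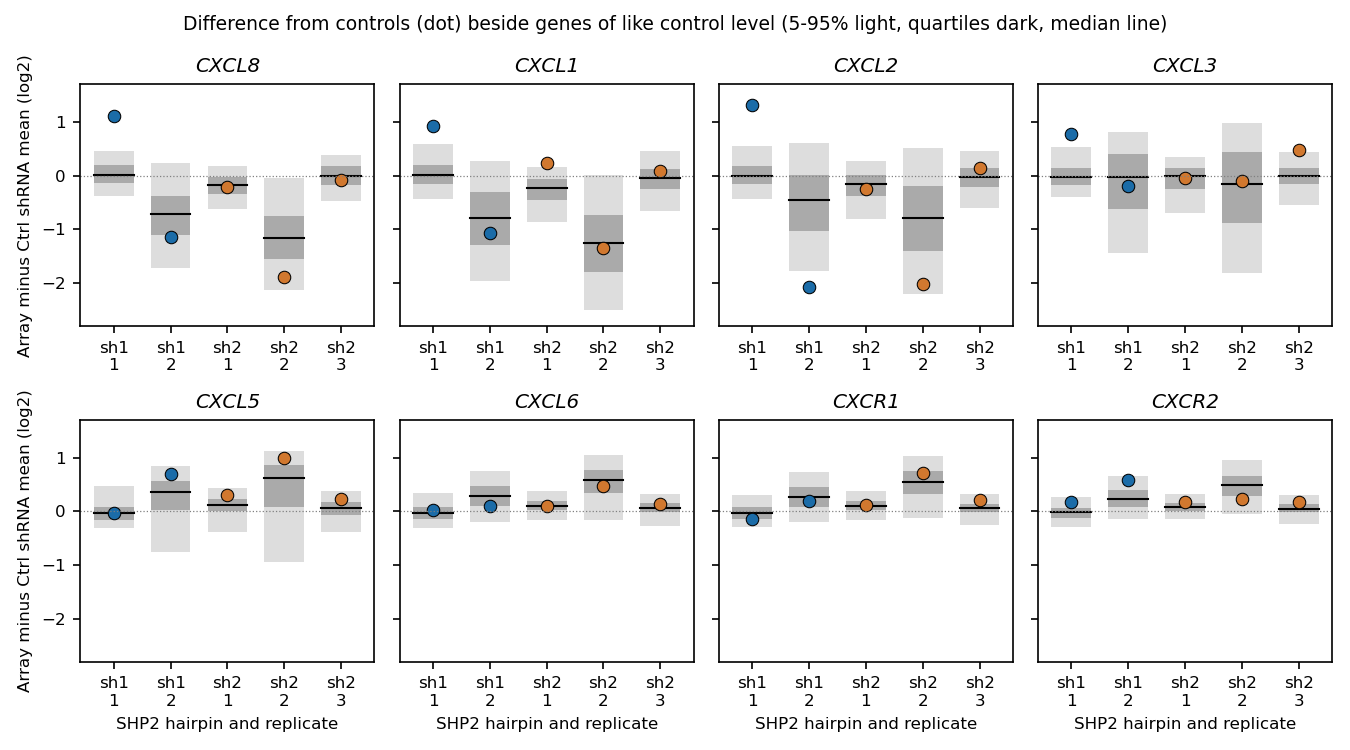
Difference of each SHP2 array from the Ctrl shRNA mean (log2) for the 8 genes (dots), beside the genes whose control mean lay within 0.5 of the member's (light bar, middle 90%; dark bar, quartiles; line, median). On SHP2 sh1 replicate 1 CXCL8, CXCL1, CXCL2 and CXCL3 lie above the light bar, and on the arrays that stood apart the bars of bright genes lie mostly below 0.

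The pattern of CXCL8 over the arrays was compared with that of every other gene by the root mean square difference of their log2 values, each taken minus the gene's own mean over the 7 arrays. CXCL1 ranked 43 of 18416 genes at 0.24, CXCL2 ranked 445 at 0.36 and CXCL3 ranked 4546 at 0.67. CXCL6 ranked 10201 and CXCL5 16913, and the receptors CXCR2 and CXCR1 ranked 9649 and 13466. A gene with no variation would lie 0.88 away, and 7514 genes, CXCL3 among them, were nearer than that. A nearly flat gene that leans slightly the same way is also nearer, so this count does not show a shared course. The 5 nearest were SPRY4, a feedback inhibitor of receptor tyrosine kinase signalling (0.10), RAB8B, a small GTPase of vesicle transport (0.16), SNX27, a sorting nexin of endosomes (0.17), ATP6AP2, an accessory protein of the vacuolar proton pump (0.17), and PSMB6, a proteasome subunit (0.18).

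SPRY4 was 9.88 and 7.63 under SHP2 sh1, and 8.69, 7.16 and 8.85 under SHP2 sh2, against 8.89 and 9.04 under Ctrl shRNA. Like CXCL8 it was highest on SHP2 sh1 replicate 1 and lowest on SHP2 sh2 replicate 2. Over the 5 arrays without those that stood apart SPRY4 ranked 4, SNX27 8, RAB8B 34, ATP6AP2 52 and PSMB6 91. CXCL2 ranked 18, CXCL1 150 and CXCL3 587, and the nearest were SIRPB1, ZC3H12C and MTHFD2L. On these arrays CXCL8 was 12.44 on SHP2 sh1 replicate 1 and 11.12 to 11.38 on the rest, so nearness mostly reflects that array. Of the 5 nearest over all arrays, 4 had a promoter in the RefSeq table, 0 of the 4 held GGAANTTCC, and SNX27 held TGANTCA. Between members, CXCL6 and CXCR1 were nearest to each other (0.16), followed by CXCL5 and CXCR1 (0.21), and among the bright ligands CXCL1 and CXCL8 (0.24).

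**Figure D5:**
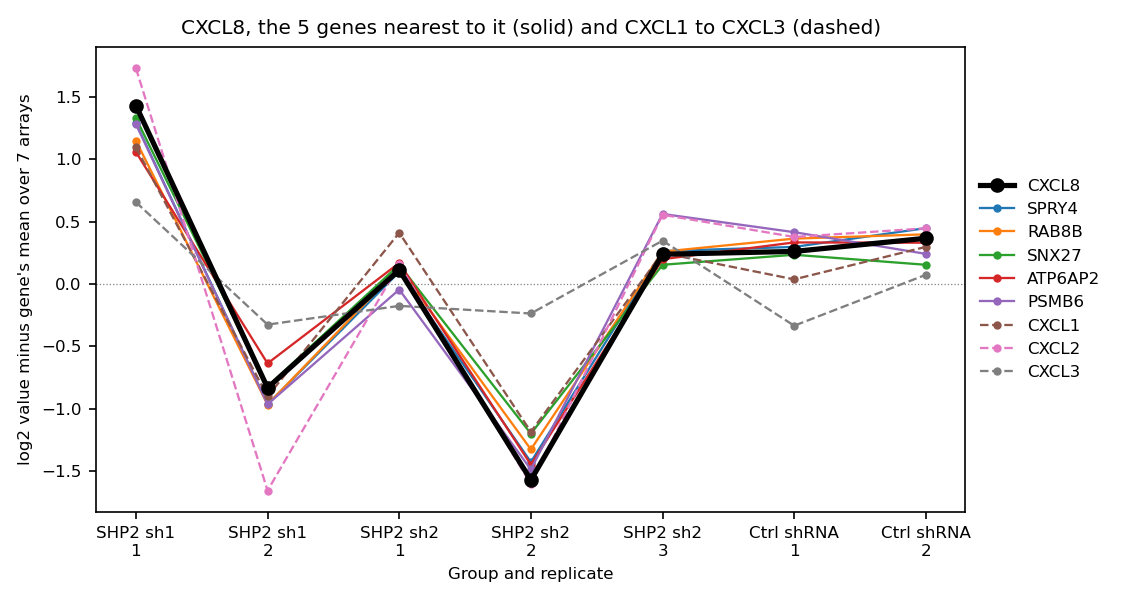
log2 value minus the gene's mean over the 7 arrays for CXCL8 (thick line), its 5 nearest genes (solid lines) and CXCL1, CXCL2 and CXCL3 (dashed lines), with SHP2 arrays left of Ctrl shRNA arrays. The solid lines follow CXCL8 up on SHP2 sh1 replicate 1 and down on both arrays that stood apart, whereas CXCL3 stays close to its mean there.

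Among cytokines that induce CXCL8, TNF was 7.32 and 6.67 under SHP2 sh1, and 6.77, 6.89 and 7.30 under SHP2 sh2, against 6.11 and 6.14 under Ctrl shRNA. Its 5 SHP2 arrays all lay above both controls, as in 8.13% of all genes. TNF was named for the smallest p of its list, in a comparison where 358 genes had an unadjusted p under 0.05 from limma. Its log2 fold change for the mean of both hairpins was 0.87 (standard error 0.25, unadjusted p = 0.0116, adjusted p = 0.758 from limma). OSM, oncostatin M, had 0.26, and 0.17 without the arrays that stood apart. IL1A, an alarmin of epithelial cells, was 11.98 and 8.65 under SHP2 sh1, and 10.68, 8.61 and 11.16 under SHP2 sh2, against 10.97 and 11.07 under Ctrl shRNA. IL1A and IL1B, which was at 7.85 to 11.98 over the 7 arrays, were highest on SHP2 sh1 replicate 1 as CXCL8 was. Averaged over both hairpins, 7 of the 8 cytokines listed were above 0, where 58.0% of all genes were, and IL1A was below at -0.79. The median of the 8 was 0.26, and 0 were called. Their median difference from the control mean was highest on the arrays that stood apart, at 0.32 and 0.76, where dim genes as a whole were higher. Without the arrays that stood apart all 8 were above 0, with a median of 0.15, where 49.3% of all genes were below 0.

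The transcription factors known to act on the CXCL8 promoter numbered 18, of which 17 were measured. Averaged over both hairpins, 11 were below 0 and 6 above (median -0.06), where 42.0% of all genes were below 0. JUNB, a subunit of AP-1, was 9.19 and 9.32 under SHP2 sh1, and 9.19, 8.81 and 8.92 under SHP2 sh2, against 9.33 and 9.50 under Ctrl shRNA. Its log2 fold change was -0.30, and that of ETS2, an ETS family factor, was -0.57. Among the NF-kB subunits RELA, the main activating one, had -0.01, REL -0.53, NFKB1 -0.41, RELB 0.17 and NFKB2 0.31. With the arrays that stood apart left out ETS2 was at -0.21, JUNB at -0.29 and RELA at 0.042. REL was then at 0.12, NFKB1 at 0.24, RELB at 0.097 and NFKB2 at 0.52. With SHP2 sh2 against SHP2 sh1, 16 of the 17 were lower, with a median of -0.23, where 44.7% of all genes were lower. With the arrays that stood apart left out, 12 were lower with SHP2 sh2, where 41.8% of all genes were, and for the mean of both hairpins 6 were below 0 and 11 above. None was called in any comparison.

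Of 8 NF-kB feedback genes 7 were measured. Averaged over both hairpins 3 were below 0 and 4 above (median 0.04), where 42.0% of all genes were below 0. TNFAIP3, which encodes the ubiquitin-editing enzyme A20 induced by NF-kB, was 10.34 and 7.76 under SHP2 sh1, and 9.24, 7.52 and 9.44 under SHP2 sh2, against 9.24 and 9.40 under Ctrl shRNA. Its course resembled that of CXCL8, high on SHP2 sh1 replicate 1 and low on the arrays that stood apart. NFKBIE, an inhibitor of NF-kB, had a log2 fold change of 0.10, or 0.16 without those arrays, and 0 of the 7 were called. Without the arrays that stood apart 1 was below 0 and 6 above.

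Of 10 proteins that bind AU-rich elements of chemokine mRNA, 7 were below 0 and 3 above when both hairpins were averaged (median -0.26). Over all genes 42.0% were below 0. KHSRP, which promotes decay of such mRNAs, was 8.85 and 9.09 under SHP2 sh1, and 9.32, 8.89 and 9.21 under SHP2 sh2, against 9.63 and 9.80 under Ctrl shRNA. ELAVL1, which stabilises them, was 7.58 and 7.84 under SHP2 sh1, and 8.01, 7.53 and 7.86 under SHP2 sh2, against 8.31 and 8.36 under Ctrl shRNA. For both genes, named for the smallest p of this list, all 5 SHP2 arrays lay below both controls, as in 7.17% of all genes. Their log2 fold changes were -0.66 and -0.58, with an adjusted p of 0.758 for each from limma, and 0 of the 10 were called. All 5 SHP2 arrays also lay below both controls for HNRNPD, TIA1 and TIAL1, and for none of the others listed. HNRNPD, TIA1 and TIAL1 had log2 fold changes of -0.94, -0.71 and -0.40, or -0.43, -0.50 and -0.16 without the arrays that stood apart. With the arrays that stood apart left out, 6 were below 0 and 4 above (median -0.23).

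Among the other CXC chemokines, CXCL11, which attracts T cells through CXCR3, was 8.84 and 7.09 under SHP2 sh1, and 7.52, 6.41 and 7.28 under SHP2 sh2, against 8.85 and 8.59 under Ctrl shRNA. CXCL10, which shares that receptor, was 10.79 and 8.61 under SHP2 sh1, and 8.41, 7.18 and 8.82 under SHP2 sh2, against 9.69 and 10.00 under Ctrl shRNA. All 3 SHP2 sh2 arrays lay below both controls for both genes, as in 16.1% of all genes, and SHP2 sh1 replicate 1 did not. Their log2 fold changes with SHP2 sh2 were -1.65 and -1.71, with an adjusted p of 0.667 for each from limma. CXCL10 was chosen for mention after its values were seen. Of the 11 genes listed, 9 were above 0 and 2 below when both hairpins were averaged (median 0.14), where 58.0% of all genes were above 0. CXCL13, a B cell attractant, had 0.29, or 0.18 without the arrays that stood apart. The count of the list turned without the arrays that stood apart, to 4 above 0 and 7 below (median -0.048).

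The 6 other receptors of CXC chemokines were all above 0 when both hairpins were averaged (median 0.24), and 0 were called. Over all genes 58.0% were above 0, with a median of 0.08. The receptors' median difference from the control mean was highest on the arrays that stood apart, at 0.42 and 0.66. ACKR1, a decoy receptor that binds CXCL8, was 6.41 and 6.96 under SHP2 sh1, and 7.02, 7.68 and 6.26 under SHP2 sh2, against 5.98 and 6.36 under Ctrl shRNA. Both SHP2 sh1 arrays lay above the controls, and the SHP2 sh2 arrays overlapped them. CXCR5, the receptor of CXCL13, had a log2 fold change of 0.28, or 0.079 with the arrays that stood apart left out. Of 13 markers of neutrophils and other blood cells 12 were measured, and all 12 were above 0 with a median of 0.25, among them S100A9 (0.62) and PTPRC (0.26). Their summed log2 level was 75.8 and 78.3 with SHP2 sh1 and 75.7, 78.5 and 72.7 with SHP2 sh2, against 74.1 and 71.1 with Ctrl shRNA, so it was highest on the arrays that stood apart, where dim genes as a whole were higher. The 5 endothelial markers were all above 0 as well, with a median of 0.24, TEK at 0.49 and PECAM1 at 0.63. Of 6 mesenchymal markers 5 were below 0, with a median of -0.24, TGFBI at -0.34 and FN1 at -0.21, and of 8 luminal markers 6 were above 0, with a median of 0.13, CDH1 at 1.05 and EPCAM at 0.45. With the arrays that stood apart left out, 5 of the 6 receptors and 9 of the 12 blood cell markers were above 0, with medians of 0.054 and 0.067, as were 2 of the 5 endothelial, 4 of the 6 mesenchymal and 5 of the 8 luminal markers, with medians of -0.018, 0.12 and 0.064. CDH1 was then at 0.28 for the mean and at -0.093 with SHP2 sh1, PECAM1 at 1.09, TGFBI at -0.012, FN1 at -0.12 and PTPRC at 0.16, while S100A9, TEK and EPCAM moved by less than 1.5 times. None of these markers was called, and their part in the members' values was not tested.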

How the data were processed

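The deposited values are log2 expression, which the authors made with the oligo package by robust multi-array averaging (background correction, quantile normalization, probe summary). They were used unchanged. The labels name a column-based RNA kit, whereas the methods name TRIzol. Of 33297 probes, 19460 had 1 gene symbol in the platform annotation, 1754 had several and 12083 were not listed there. The probe of largest interquartile range stood for each of 18417 genes. A model with 1 mean per group was fitted to the 7 arrays with limma 3.58.1 (lmFit, eBayes; R 4.3.3). Two-sided p-values were adjusted by Benjamini-Hochberg over all genes and called under 0.05. The procedure was tested on simulated data with the same spread for every gene and no arrays that stood apart. Those settings are unlike these data, so that test does not show how well changes would be found here. Protein sequences were not analysed here. Named genes were the 8 members, PTPN11, the 2 of smallest p in each other list and the 5 nearest to CXCL8, and any gene beyond these was picked with its values in view. Members and lists were chosen with earlier results of these data known. Alternatives were other probes, a dim filter (log2 6 on at least 2 arrays), cyclic loess, median centring, a prior trend, array weights, a replicate block, only the arrays compared and arrays left out.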

Additional observations from a re-analysis of the deposited data

How the results depend on the processing

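Over 17 alternative settings, 524 values of the 8 genes were recomputed. Of these 212 equalled the value over all arrays, as where a setting changes only the error or leaves out an array of a group not compared. Of the 312 that moved, 262 kept their direction and 50 reversed. None was called by limma, and the smallest adjusted p of a member in limma was 0.151. The count of genes called for SHP2 sh2 over Ctrl shRNA was 0 in every setting but array weights, estimated gene by gene. That setting gave 122 of 18417 genes, so 0 members among them says nothing about the members. SHP2 sh2 replicates 1, 2 and 3 had weights of 6.73, 0.12 and 1.39, so replicate 1 carried most of that group's mean. Both SHP2 sh1 arrays had the same weight, 0.26, so replicate 2 was not singled out. The default estimate of the weights did not converge and was not used. With array weights the log2 fold change of CXCL1 was 0.19 with SHP2 sh2, 0.062 averaged over both and 0.26 for SHP2 sh2 minus SHP2 sh1, where CXCL2 was at 0.16 and CXCL5 at -0.028. With cyclic loess, SHP2 sh1 gave 0.11 for CXCL1, -0.046 for CXCL6, 0.19 for CXCL8 and -0.086 for CXCR1, and the mean gave 0.022 for CXCL1 and -0.0059 for CXCL6. With median centring CXCR1 was at -0.014 with SHP2 sh1.

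The replicate numbers were not taken to pair the arrays, since they did not do so against Ctrl shRNA. Same-numbered deviations from the group means correlated at -0.06 between Ctrl shRNA and SHP2 sh1. They correlated at 0.02 and -0.03 between Ctrl shRNA and SHP2 sh2, and at 0.62 and 0.85 between the hairpins. The differently numbered SHP2 sh2 replicate 3 and SHP2 sh1 replicate 1 were at 0.81. In a group of 2 arrays the deviations mirror each other. The correlations between the hairpins thus share the same SHP2 sh1 contrast and are not separate evidence on pairing. The replicate block called 0 genes throughout. Its unadjusted p was under 0.05 for 753 genes in SHP2 sh1, 3323 in SHP2 sh2 and 2427 in both hairpins averaged, and for 468 between the hairpins, and it turned CXCL3 with SHP2 sh2 to -0.076. CXCL8 was at -0.53 for the mean with the block. Replicate 3 exists only in SHP2 sh2, so the block takes that array out of the group mean. With the block the SHP2 sh2 values, such as -0.076 for CXCL3 and -1.04 for CXCL8, equal those with SHP2 sh2 replicate 3 left out.

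Without both arrays that stood apart, SHP2 sh1 gave 0.93 for CXCL1, 1.32 for CXCL2, -0.024 for CXCL5, 1.12 for CXCL8 and -0.15 for CXCR1, SHP2 sh2 gave 0.16 for CXCL1, and the mean gave 0.55 for CXCL1, 0.63 for CXCL2 and 0.49 for CXCL8. With single arrays left out, the mean ran from -0.93 (without SHP2 sh1 replicate 1) to 0.20 (without SHP2 sh1 replicate 2) for CXCL8, and between those same settings from -0.71 to 0.29 for CXCL1, from -1.39 to 0.30 for CXCL2 and from -0.043 to 0.45 for CXCL3. With SHP2 sh1 the ranges were -1.15 to 1.12 for CXCL8, -1.07 to 0.93 for CXCL1, -2.07 to 1.32 for CXCL2, -0.20 to 0.79 for CXCL3, -0.024 to 0.70 for CXCL5, -0.028 to 0.15 for CXCL6 and -0.15 to 0.19 for CXCR1. With SHP2 sh2 they were -1.04 to -0.14 for CXCL8, -0.64 to 0.16 for CXCL1 and -0.10 to 0.31 for CXCL3. For SHP2 sh2 minus SHP2 sh1 they were -1.84 to 0.43 for CXCL8, -1.27 to 0.73 for CXCL1, -2.03 to 1.36 for CXCL2, -0.68 to 0.30 for CXCL3, -0.19 to 0.53 for CXCL5 and -0.39 to 0.021 for CXCR2. A group left with 1 array is assumed to vary like the others. The dim filter gave no value for CXCL6, CXCR1 and CXCR2, and a fit of only the arrays compared was not defined for the mean. Each member has 1 probe, so the choice of probe could not change it. Apart from the loss of SHP2 sh2 replicate 3 in the replicate block, the causes of these reversals were not tested.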
